A study of Mus musculus with 10 samples.

Results

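The genes described here are 8 nuclear receptor genes other than the vitamin D receptor (Rara, Rarg, Nr3c1, Thra, Ppard, Nr1d1, Nr1d2 and Rora) and Ahr, the gene of the aryl hydrocarbon receptor. They were chosen by symbol, and all 9 were found by their Ensembl identifiers among the 49671 gene rows of the count table. Their RNA was compared between TH2 cultures of vitamin D-deficient mice and of control mice. TH2 cells are the helper T cells of allergic and anti-worm responses and make the cytokines IL-4, IL-5 and IL-13. All mice were wild-type C57BL/6. The control mice had regular chow, in which vitamin D3 was set at 400 IU per kg. The deficient mice were the second generation raised on chow free of vitamin D metabolites and shielded from ultraviolet light. Naive CD4+ T cells were polarised in culture without further treatment, and RNA was taken on day 5. There were 3 control and 7 deficient libraries. Batch 1 held control libraries 1 and 2 and deficient libraries 1 to 5, and batch 2 held control library 3 and deficient libraries 6 and 7. The labels do not say whether the libraries came from separate mice, so the p-values speak only of the variation among these libraries, part or all of which may be technical.

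Nuclear receptors are transcription factors that are switched by small fat-soluble ligands. Rara and Rarg encode receptors for retinoic acid, Thra a receptor for thyroid hormone and Ppard a receptor for fatty acids, and these 4 proteins bind DNA together with a retinoid X receptor, as the vitamin D receptor does. Nr3c1 encodes the glucocorticoid receptor, which waits in the cytoplasm on heat shock protein chaperones until cortisol or corticosterone binds. Nr1d1 and Nr1d2 encode the REV-ERB repressors and Rora encodes the activator ROR alpha, which compete for the same DNA sites in the circadian clock. Ahr is not a nuclear receptor but a basic helix-loop-helix protein. It is also held by chaperones until a ligand such as a dioxin or a tryptophan product binds, and then pairs with the protein ARNT. In T cells, retinoic acid directs homing to the gut, glucocorticoids damp inflammation and kill thymocytes, and Ahr is known for its part in TH17 and regulatory T cells.

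The control libraries were shallower, at 5800698 to 6462146 counts against 7029207 to 13433276 in the deficient libraries (exact permutation test, two-sided p = 0.00833, a value no lower being possible with 120 splits). Levels are given as CPM, the counts of a gene relative to the total of its library. The summed level of 10 TH2 markers was 1625 to 1706 CPM in the controls and 1145 to 1259 CPM in the deficient libraries, and none of the 10 was at 0. Of these 10, 2 were higher, 6 lower and 2 did not pass, so the sum hides opposite directions. The 2 higher were the cytokine genes Il5 and Il13, at log2 fold changes of 0.84 and 1.21, and Il4 did not pass, at 0.05. The call of Il13 held under all 23 alternatives described below and that of Il5 did not. The cultures also differed in markers of other cells. For 11 markers of CD8 T cells and cytotoxic lymphocytes the sum was 97.3 to 199 CPM in the controls, 677 to 1030 CPM in deficient libraries 1 to 4 and 1468 to 1930 CPM in deficient libraries 5 to 7, and 8 of the 10 tested were higher. Klra4 was the marker of this list at 0 in all controls. For 9 B cell markers the sums were 12.8 to 104 CPM, 55.5 to 84.4 CPM and 296 to 334 CPM, with 2 of 8 higher and none at 0. Control library 3, the only control of batch 2, stood apart, at 199 CPM for the cytotoxic list and 104 CPM for the B cell list. Control libraries 1 and 2 were at 105 and 97.3 CPM for the cytotoxic list and at 16.9 and 12.8 CPM for the B cell list. All values given for batch 2 alone rest on control library 3. Among 13 myeloid and dendritic cell markers, whose sums were 20.4 to 24.6 CPM in the controls and 16.9 to 26.3 CPM in the deficient libraries, 2 of 5 tested were higher and 1 lower. Csf3r and S100a8 were at 0 in all controls and Siglech in all deficient libraries. The 7 markers of group 2 innate lymphoid cells summed to 240 to 250 CPM in the controls and 134 to 198 CPM in the deficient libraries, with 1 of 5 tested higher and 3 lower, and Arg1 was at 0 in all controls. The 6 regulatory T cell markers summed to 1505 to 1561 CPM and 917 to 1059 CPM, with 1 of 5 higher and 3 lower, although Foxp3 itself had 1 count in all controls and 11 in all deficient libraries. For 6 TH17 markers the sums were 1.55 to 3.69 CPM and 1.72 to 4.71 CPM, and Ccr6 was at 0 in all controls. For comparison, 29.4% of all 13699 genes tested were higher and 28.6% lower at an edgeR adjusted p below 0.05. The part of these markers in the results was not tested. In bulk RNA, fewer cells of a type and less RNA per cell cannot be told apart.

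Of the 9 genes, 8 had enough counts to be tested and Nr1d1 did not. In deficient libraries Nr3c1, Nr1d2 and Rora were higher and Ahr and Ppard were lower, while Rara, Rarg and Thra did not pass the test. That is 3 of 8 higher and 2 of 8 lower at an edgeR adjusted p below 0.05, where 29.4% of the 13699 genes tested were higher and 28.6% lower. So 58% of all genes passed in either direction, and 5 of 8 is near that share. Every deficient library was above every control for Nr3c1 and Nr1d2, an order seen in 29.4% of all genes, and below every control for Ahr, as in 21.4% of all genes. The median log2 fold change of the 8, deficient minus control throughout, was 0.30, and that of all genes was 0.02. The edgeR tests of the batch term and of diet by batch called 0 of the 13699 genes, with 7.58% and 4.12% at an unadjusted p below 0.05 and none of the 8 among these. With 1 control in batch 2 a test that does not pass does not show that the batches are alike, so values within each batch are given below for the genes that passed.

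**Figure D1:**
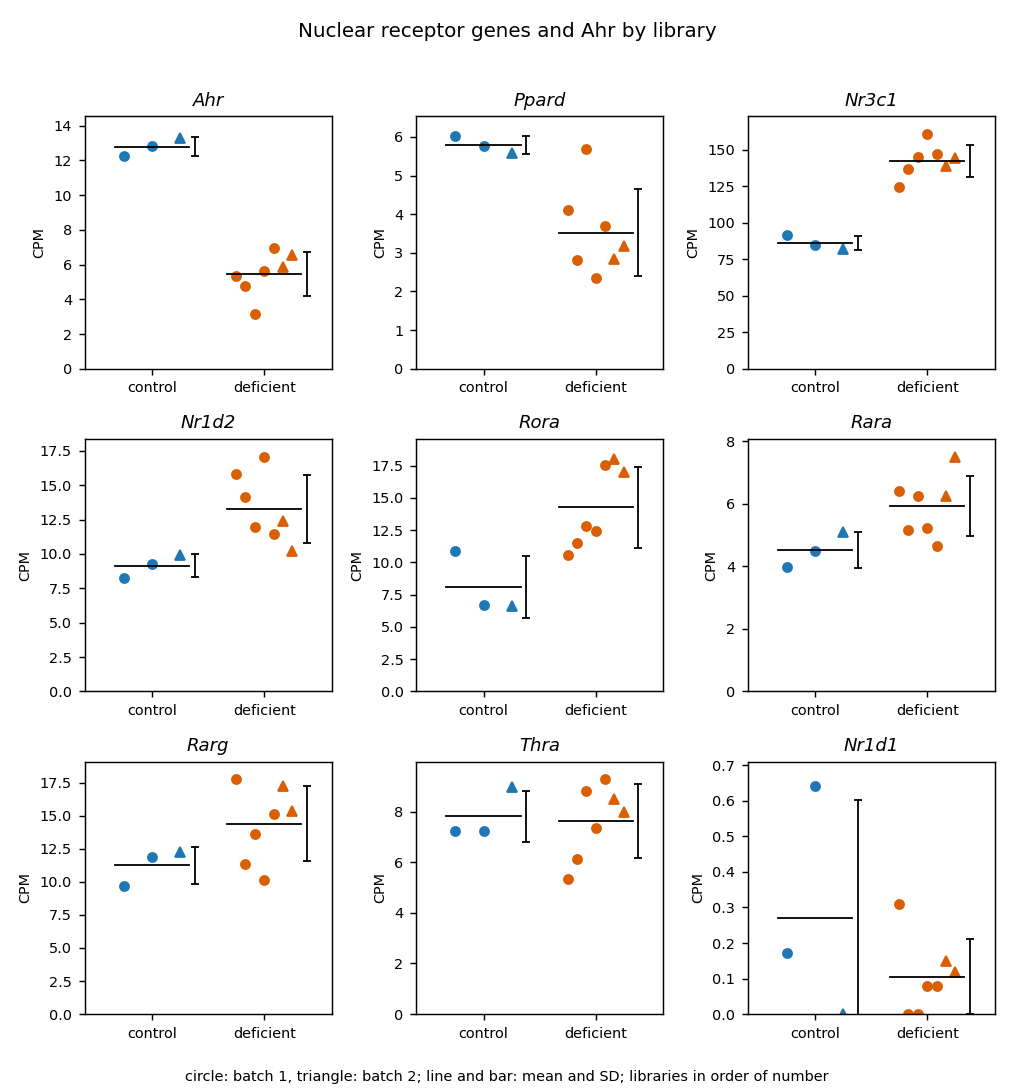
CPM of the 9 genes on the vertical axis by library and diet, with circles for batch 1, triangles for batch 2, a line at the mean and a bar for the SD (cut at 0 for Nr1d1). Ahr separates the diets downward and Nr3c1 upward, the fifth to the seventh deficient libraries lie highest for Rora, and deficient library 3 lies among the controls for Ppard.

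Levels can be compared between genes only per length, here as CPM per kilobase of merged exons. In the controls Nr3c1 led at 11.2 ± 0.63 CPM per kilobase (SD, n = 3), followed by Rarg at 2.64, Ahr at 2.08, Nr1d2 and Thra at 1.69 each, Rara at 1.04, Ppard at 0.771, Rora at 0.618 and Nr1d1 at 0.0881. The ranges over libraries of Nr1d2 and Thra overlapped, as did those of Ppard and Rora, and all other neighbours in this order were apart. In the deficient libraries the order was Nr3c1 at 18.5 ± 1.43 CPM per kilobase (SD, n = 7), Rarg at 3.38, Nr1d2 at 2.46, Thra at 1.65, Rara at 1.36, Rora at 1.09, Ahr at 0.887, Ppard at 0.468 and Nr1d1 at 0.0341. There only the first and the last neighbours were apart, and every neighbouring pair from Rarg down to Ppard overlapped. Ahr thus stood in place 3 in the controls and in place 7 in the deficient libraries.

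Ahr RNA was lower in all deficient cultures. Ahr (ENSMUSG00000019256, GRCm38 chr12:35497974-35535038, minus strand) was at 12.2, 12.8 and 13.3 CPM in control libraries 1 to 3, and at a lowest of 3.13, a median of 5.63 and a highest of 6.97 CPM in the deficient libraries. The groups did not overlap, and the highest deficient library stood well under the lowest control. The fitted level was 0.409 of the control level, a log2 fold change of -1.29 (SE 0.18, edgeR adjusted p = 1.87e-05). It was -1.35 in batch 1 alone and -1.47 without deficient libraries 5 to 7, the libraries with the most B cell and cytotoxic markers, and passed in both. In batch 2 alone it was -1.17. Deficient libraries 1 to 4 still had 677 to 1030 CPM of cytotoxic markers against 97.3 to 199 CPM in the controls. The part of these markers in the Ahr difference was not tested. Exons of Ahr share 127 bases with the long noncoding RNA gene Gm48236 on the opposite strand, and the strand setting of the counting is not given in the sources used here.

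The RNA of its dimer partner was lower too. Arnt was at 73.4, 71.5 and 62.1 CPM in the controls and at 30.0 to 36.0 CPM in the deficient libraries (log2 fold change -1.15, SE 0.07, edgeR adjusted p = 3.29e-09). The groups did not overlap.

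Of 14 listed Ahr targets and feedback genes 9 were tested, of which 4 were lower, 2 higher and 3 did not pass, where 28.6% of all genes were lower and 29.4% higher. Their median log2 fold change was -0.26, against 0.02 over all genes. The 4 lower genes were Cyp1a1 and Cyp1b1, enzymes that oxidise dioxins and other planar ligands, Ahrr, a repressor that competes for Arnt, and Tiparp, an ADP-ribosyltransferase that shuts Ahr down. To show how the windows before these 4 start sites read, the 250 bases upstream of each are printed from RefSeq (GRCm38.p6), in the direction of the gene, with GCGTG, the core of the Ahr and Arnt site, in capitals on either strand (CACGC where it lies on the other strand).
Cyp1a1, chr9:57697363-57697612, plus strand: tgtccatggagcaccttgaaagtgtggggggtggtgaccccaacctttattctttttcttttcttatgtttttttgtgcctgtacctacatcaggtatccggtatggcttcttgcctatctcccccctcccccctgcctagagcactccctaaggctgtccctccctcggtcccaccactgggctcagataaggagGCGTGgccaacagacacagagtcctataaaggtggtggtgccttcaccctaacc
Cyp1b1, chr17:79715062-79715311, minus strand: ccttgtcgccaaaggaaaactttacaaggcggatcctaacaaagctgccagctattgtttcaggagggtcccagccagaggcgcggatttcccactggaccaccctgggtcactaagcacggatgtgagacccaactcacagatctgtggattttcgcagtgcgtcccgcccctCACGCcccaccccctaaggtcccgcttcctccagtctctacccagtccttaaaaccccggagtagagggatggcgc
Ahrr, chr13:74292332-74292581, minus strand: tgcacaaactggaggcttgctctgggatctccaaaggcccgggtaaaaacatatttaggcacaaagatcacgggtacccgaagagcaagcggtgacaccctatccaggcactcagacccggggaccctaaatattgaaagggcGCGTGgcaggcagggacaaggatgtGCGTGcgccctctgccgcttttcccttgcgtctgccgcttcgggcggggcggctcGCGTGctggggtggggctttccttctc
Tiparp, chr3:65528197-65528446, plus strand: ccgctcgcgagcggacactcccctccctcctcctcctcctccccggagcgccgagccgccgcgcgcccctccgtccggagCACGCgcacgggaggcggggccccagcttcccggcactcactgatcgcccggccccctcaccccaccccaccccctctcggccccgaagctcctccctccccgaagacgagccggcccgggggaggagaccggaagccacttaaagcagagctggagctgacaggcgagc
The core occurs 3 times before Ahrr and 1 time before each of the other genes, and none of these matches overlaps another motif searched. Of 32851 such windows 28.2% hold it. The 10 listed target genes with a window have 11 windows together, and 5 of these genes hold it in at least 1. A match of 5 bases is a description of the sequence and not a bound site, and the well known enhancer of Cyp1a1 lies further upstream than this window.

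Cyp1a1 was at 11.2, 11.1 and 7.74 CPM in the controls, and in the deficient libraries its lowest, median and highest values were 0, 0.235 and 0.711 CPM. It was nearly absent from every deficient culture. Summed over libraries that is 184 counts in the controls and 20 in the deficient cultures, a pooled level 40.0 times as high in the controls (95% interval 25.2 to 67.0, counting error only), and the fitted log2 fold change was -5.38 (SE 0.38, edgeR adjusted p = 1.45e-08). Cyp1b1, with 19 counts in the controls and 3 in the deficient libraries, had a pooled ratio of 27.5 (8.10 to 145). Ahrr fell from 11.7 ± 0.893 (SD, n = 3) to 3.37 ± 1.71 CPM (SD, n = 7), a log2 change of -1.96 (SE 0.28, edgeR adjusted p = 5.42e-05), with deficient library 3 at 6.97 CPM and the other 6 between 1.93 and 4.07. Tiparp fell from 38.2 to 18.7 CPM (log2 fold change -1.13, edgeR adjusted p = 1.38e-07).

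Not all of the listed targets went down. Nqo1, a quinone reductase that NRF2 also controls, was higher at 1.34 ± 0.703 CPM in the controls (SD, n = 3) and 3.59 ± 0.746 CPM in the deficient libraries (SD, n = 7), a log2 fold change of 1.31 (edgeR adjusted p = 0.00286). Gpr15, a receptor for homing to the colon, rose from 0.384 to 2.45 CPM (log2 fold change 2.58, edgeR adjusted p = 0.00114). Entpd1, which encodes the ectonucleotidase CD39, was at 16.7 and 14.7 CPM, Slc7a5, which carries tryptophan and kynurenine into the cell, at 79.9 and 91.2 CPM, and Ido1 at 0.172 and 1.44 CPM, and these 3 did not pass. Deficient libraries were split for Entpd1 and Ido1. Entpd1 was at 15.2 to 19.5 CPM in the controls, 5.72 to 13.0 CPM in deficient libraries 1 to 4 and 19.6 to 24.0 CPM in libraries 5 to 7. For Ido1 these ranges were 0 to 0.517, 0 to 0.455 and 2.32 to 3.87 CPM. All 6 calls of this list held under every one of the 23 alternatives in which the gene was tested.

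**Figure D2:**
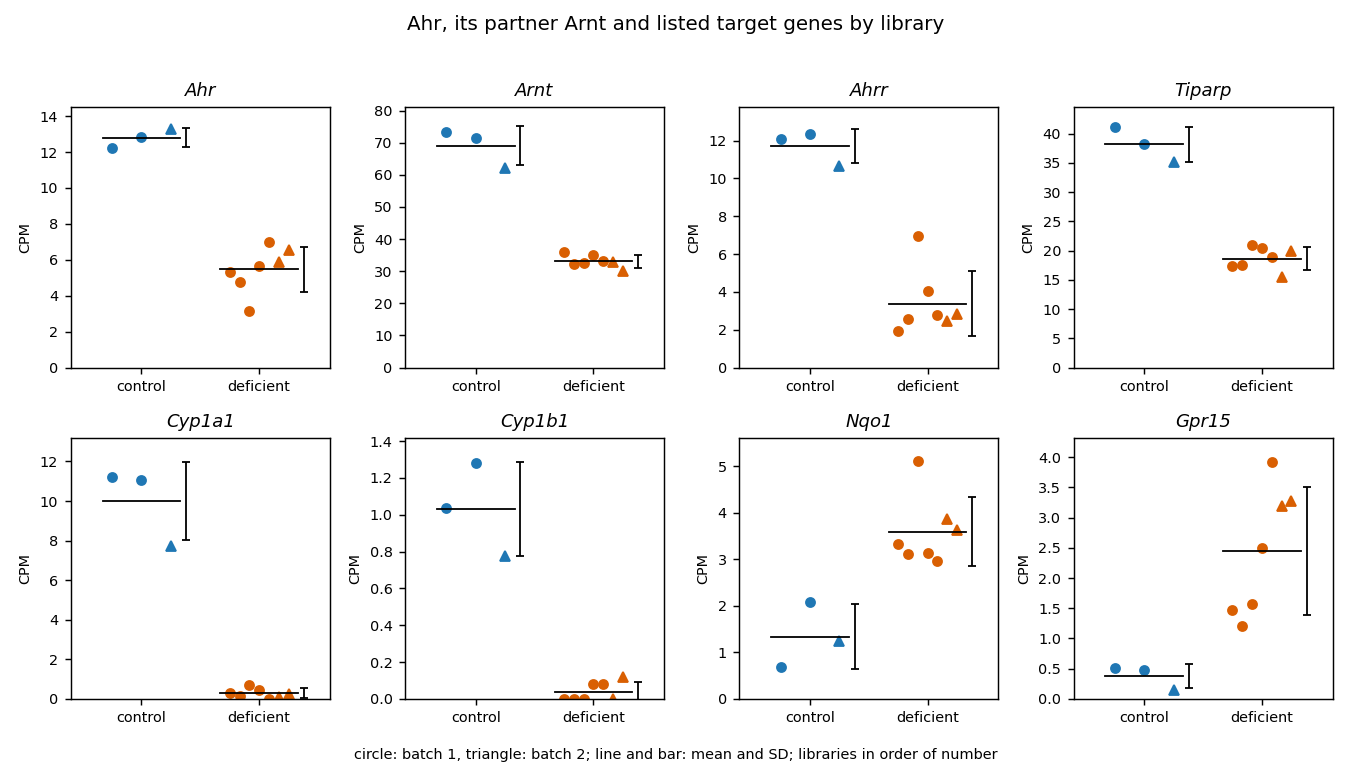
CPM of Ahr, its partner Arnt and 6 listed target genes on the vertical axis by library and diet, with circles for batch 1, triangles for batch 2, a line at the mean and a bar for the SD (cut at 0). The groups are apart in all 8 panels, downward in 6 and upward for Nqo1 and Gpr15, and Cyp1a1 stays at or under 0.711 CPM in the deficient libraries.

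The glucocorticoid receptor gene moved the other way. Nr3c1 (ENSMUSG00000024431, chr18:39410545-39519421, minus strand) was at 91.5, 84.8 and 82.2 CPM in the controls and at a lowest of 125, a median of 144 and a highest of 161 CPM in the deficient libraries. All deficient libraries were above all controls, with a gap wider than the spread of the controls. The fitted level was 1.55 times that of the controls, a log2 fold change of 0.63 (SE 0.07, edgeR adjusted p = 2.41e-06). It was 0.59 in batch 1 alone and 0.58 without deficient libraries 5 to 7, and passed in both. In batch 2 alone it was 0.72. The part of the cytotoxic markers, still higher in deficient libraries 1 to 4 than in the controls, was not tested.

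Its chaperones did not move as a block. Of 20 listed partners, chaperones and cofactors of the receptors 18 were tested, of which 6 were higher, 10 lower and 2 did not pass, with a median log2 fold change of -0.23. So 16 of 18 passed, where 58% of all genes did, with 29.4% higher and 28.6% lower. Hsp90aa1, the inducible HSP90 that holds the unbound receptor, rose from 329 ± 27.8 (SD, n = 3) to 692 ± 46.2 CPM (SD, n = 7), a log2 change of 0.98 (edgeR adjusted p = 7.21e-09). Ptges3, which encodes the p23 cochaperone, rose by 0.73 on the log2 scale, and Fkbp4, which links the receptor to motor proteins, rose from 83.0 to 138 CPM (0.65, edgeR adjusted p = 2.86e-07). The constitutive Hsp90ab1 fell by 0.32 on the log2 scale (edgeR adjusted p = 0.000732). The cofactors Hdac3 and Med1 were higher by 0.46 and 0.41. The corepressor Ncor1 was lower, at -0.64, as were the coactivators Ncoa2 and Ncoa3, at -0.74 and -1.38.

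Target genes of the glucocorticoid receptor were split. Of 18 listed, 16 were tested, 3 were higher, 7 lower and 6 did not pass, with a median log2 fold change of -0.32, and the 10 of 16 that passed are again close to the share of all genes. Tsc22d3, the glucocorticoid-induced leucine zipper that restrains NF-kappaB, was at 82.7, 70.5 and 61.9 CPM in the controls and at 53.2, 55.2 and 66.1 CPM (lowest, median, highest) in the deficient libraries. The groups overlapped, and the log2 fold change was -0.40 (edgeR adjusted p = 0.00112, but -0.19 and 0.2 in batch 2 alone). The metallothionein Mt1, which binds zinc, fell from 28.6 ± 9.03 (SD, n = 3) to 9.28 ± 0.885 CPM (SD, n = 7), a log2 change of -1.70 (edgeR adjusted p = 2.36e-07). Zfp36, which destroys cytokine mRNAs, and the chemokine receptor Cxcr4 fell by 1.27 and 1.68 on the log2 scale. Per1, both a clock gene and a direct glucocorticoid target, was at 12.5 and 11.2 CPM and did not pass.

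The 3 higher targets were Klf9, Fkbp5 and Errfi1. Klf9, a Krüppel-like factor, rose from 12.5 to 20.6 CPM (log2 fold change 0.61, edgeR adjusted p = 0.000864). Fkbp5, the cochaperone that lowers the receptor's affinity for hormone, was at 51.7, 53.5 and 54.0 CPM in the controls. It lay between 76.3 and 92.7 CPM in deficient libraries 1 to 4 and between 57.5 and 61.2 CPM in libraries 5 to 7. Its log2 fold change of 0.36 (edgeR adjusted p = 0.0235) no longer passed under 4 of the 23 alternatives. Among these were the fits without control library 1 (0.31, adjusted p = 0.113), without control library 2 (0.31, 0.116) and in batch 2 alone (0.06). The call of Errfi1, a feedback inhibitor of EGF receptors, at 0.41 (edgeR adjusted p = 0.00749), was lost under 3 of the 23 alternatives, among them without control library 3 (0.35, 0.0549). Mt1, Zfp36, Cxcr4 and Klf9 kept their calls under all 23 alternatives, and the other 6 calls of the list did not.

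For the retinoic acid receptors no difference between diets was shown. Rara (ENSMUSG00000037992, chr11:98927818-98974942, plus strand), the lower of the pair per kilobase in both diets, was at 3.97, 4.49 and 5.11 CPM in the controls and at 4.65, 6.25 and 7.51 CPM (lowest, median, highest) in the deficient libraries. The groups overlapped, since deficient library 5 lay under control library 3. Its log2 fold change was 0.31 (SE 0.18, 95% interval -0.08 to 0.70, edgeR adjusted p = 0.156). Rarg (ENSMUSG00000001288, chr15:102234938-102257517, minus strand) was at 9.65, 11.9 and 12.2 CPM in the controls and at 10.2, 15.1 and 17.8 CPM (lowest, median, highest) in the deficient libraries. Deficient libraries 2 and 4 lay within the control range and the other 5 above it. The log2 fold change was 0.28 (SE 0.18, 95% interval -0.10 to 0.66, edgeR adjusted p = 0.185), and with no filter on low counts, which raised the values of the shared genes by a median of 0.109, it passed at 0.39 (adjusted p = 0.0379). The third receptor, Rarb, had 2 counts in all controls and 1 in all deficient libraries.

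Their obligate partners differed from each other. Rxra was at 27.4, 41.0 and 36.4 CPM in the controls, between 50.2 and 57.5 CPM in deficient libraries 1 to 4 and between 21.2 and 29.9 CPM in deficient libraries 5 to 7. The first 4 were above every control and the last 3 lay within or below the control range. The pooled log2 fold change was 0.09 (edgeR adjusted p = 0.826), and without libraries 5 to 7 it was 0.52 (0.00096). Rxrb was at 44.0 ± 2.81 CPM in the controls (SD, n = 3) and 40.1 ± 2.48 CPM in the deficient libraries (SD, n = 7), with a log2 fold change of -0.22 (edgeR adjusted p = 0.0209). That call was lost under 8 of the 23 alternatives. Among these were any 1 of the controls left out, at -0.21, -0.21 and -0.20 with edgeR adjusted p-values of 0.0717, 0.068 and 0.081. Another was plain total count scaling (-0.13, 0.161).

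Of 18 listed genes that handle or answer retinoic acid 11 were tested, with 1 higher, 5 lower and 5 that did not pass, and a median log2 fold change of -0.59. Over all genes 29.4% were higher and 28.6% lower, and the 6 of 11 that passed are close to the share of 58%. Of the 6 calls, those of Tgm2 and Itga4 held under all 23 alternatives. Tgm2, transglutaminase 2, a classic retinoic acid target, fell from 412 ± 42.3 (SD, n = 3) to 131 ± 59.2 CPM (SD, n = 7), a log2 change of -1.75 (edgeR adjusted p = 0.00384), with 70.7 to 104 CPM in deficient libraries 1 to 4 and 154 to 222 CPM in libraries 5 to 7. The 2 chains of the gut-homing integrin went opposite ways. Itga4 rose from 12.0 to 19.1 CPM (0.60, edgeR adjusted p = 0.00547), and Itgb7 fell from 135 to 85.4 CPM (-0.75, edgeR adjusted p = 0.0106, 0.0852 with no filter). Within the deficient group both were higher in libraries 5 to 7 than in libraries 1 to 4. Itga4 was at 20.8 to 25.7 CPM against 14.9 to 16.8 CPM, and Itgb7 at 107 to 116 CPM against 57.9 to 69.6 CPM. The retinol carrier receptor Stra6 at -0.96 and the repressor Hic1 at -0.76 were also lower. Both calls were lost without 1 control library, and under 3 and 2 of the 23 alternatives in all. For Stra6 the value was -0.97 without control 2 (edgeR adjusted p = 0.0635) and -0.80 without control 3 (0.108), and for Hic1 -0.57 without control 2 (0.0996). Dhrs3, a retinaldehyde reductase induced by retinoic acid, was at 5.89 and 4.17 CPM with a log2 fold change of -0.59 (edgeR adjusted p = 0.0629). It passed under 5 of the 23 alternatives, among them without control library 1 (-0.81, 0.0336) and without deficient library 1 (-0.71, 0.0209). Crabp2, which hands retinoic acid to its receptor, was at 61.9 CPM in the controls and 71.9 CPM in the deficient libraries and did not pass (0.15, edgeR adjusted p = 0.826). Without deficient library 3, which stood at 12.9 CPM, its value was 0.32 (0.0453).

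Thra, Nr1d1 and Rara lie together on chromosome 11. Thra (ENSMUSG00000058756, chr11:98740638-98769006, plus strand) was at 7.24, 7.21 and 8.98 CPM in the controls and at 5.33, 7.98 and 9.30 CPM (lowest, median, highest) in the deficient libraries. The deficient libraries lay on both sides of the controls. The log2 fold change was -0.11 (SE 0.18, 95% interval -0.50 to 0.27, edgeR adjusted p = 0.606). Nr1d1 (ENSMUSG00000020889, chr11:98767932-98775333, minus strand) had 1, 4 and 0 counts in control libraries 1 to 3 and 4, 0, 0, 1, 1, 2 and 1 counts in deficient libraries 1 to 7. It was at the limit of detection in both diets, since a count of 0 allows up to 3 counts, or 0.464 CPM in control library 3. Pooled, that is 0.270 CPM in the controls (95% interval 0.0878 to 0.631) and 0.112 CPM in the deficient libraries (0.0512 to 0.213). The ratio of deficient to control was 0.414 (0.125 to 1.57, counting error only), so no difference was detectable at this depth. The 3' ends of Thra and Nr1d1 overlap on opposite strands by 263 exon bases, 5.7% of the exon length of Thra and 8.55% of that of Nr1d1, so some reads of the pair may be assigned to the wrong gene or to neither.

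The stretch from Thra to Rara spans 234 kb and holds 11 genes of the table, 8 of them protein-coding. Of the 6 tested, 3 passed, all of them upward, where 58% of all genes passed and 29.4% were higher. These were Msl1, a subunit of a histone acetyltransferase complex (0.36, edgeR adjusted p = 0.00119), Casc3, a core protein of the exon junction complex (0.36, 0.00558, and 0.36 with 0.0502 in batch 2 alone), and Cdc6, which loads the replicative helicase (0.38, 0.0171). Cdc6 was lost under 4 of the 23 alternatives, among them without control library 1 (0.35, 0.0841) and without control library 2 (0.39, 0.0638). They were named after their values were seen. The other 3 tested were Thra, Rara and Wipf2, an actin regulator at 0.24 (edgeR adjusted p = 0.183).

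The other thyroid hormone receptor gene was higher. Of 12 listed genes of thyroid hormone handling and response, 3 were tested, 2 were higher and 1 did not pass, with a median log2 fold change of 0.61. Over all genes 29.4% were higher, and 3 tested genes are too few to set against that share. Thrb was at 7.59, 4.33 and 5.88 CPM in the controls and at 15.7, 22.5 and 23.4 CPM (lowest, median, highest) in the deficient libraries, a log2 fold change of 1.72 (SE 0.19, edgeR adjusted p = 1.56e-06). The groups were far apart. Klf9, which thyroid hormone also induces, is the other higher gene. Slc16a10, a carrier of aromatic amino acids and thyroid hormones, was at 25.6 and 37.3 CPM (0.44, edgeR adjusted p = 0.0689). It passed under 6 of the 23 alternatives, among them without deficient library 5 (0.52, 0.000383) and with DESeq2 (0.44, 0.0236).

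Ppard was lower in the deficient cultures. Ppard (ENSMUSG00000002250, chr17:28232700-28301474, plus strand) was at 6.03, 5.77 and 5.57 CPM in the controls and at 2.35, 3.17 and 5.69 CPM (lowest, median, highest) in the deficient libraries. Deficient library 3 lay within the control range and the other 6 below it. The fitted level was 0.557 of that of the controls, a log2 fold change of -0.84 (SE 0.25, edgeR adjusted p = 0.00883). In batch 1 alone it was -0.79 and did not pass (adjusted p = 0.0598), and in batch 2 alone it was -0.96 (0.0317). The gene had 27 to 53 counts per library.

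Listed genes of fatty acid oxidation and other lipid handling, among them known PPAR delta targets, were split. Of 17 listed, 14 were tested, 3 were higher, 5 lower and 6 did not pass, with a median log2 fold change of 0.04. The 8 of 14 that passed are close to the 58% of all genes. Cpt1a, the carnitine transferase that admits long-chain fatty acids to mitochondria, was at 99.1, 99.2 and 100.1 CPM in the controls and at 36.6 to 46.8 CPM in the deficient libraries (log2 fold change -1.34, SE 0.07, edgeR adjusted p = 1.2e-09). Angptl4, a secreted lipase inhibitor and a sensitive PPAR target, fell from 8.95 to 2.55 CPM (-1.91, edgeR adjusted p = 0.00152). The mitochondrial enzymes Hadha and Acadl fell by 0.44 and 0.42 on the log2 scale. The cholesterol exporter Abca1 fell by 1.10 (edgeR adjusted p = 0.0113, but -0.99 and 0.0614 with no filter and -0.82 and 0.145 in batch 2 alone). Higher were the carnitine carrier Slc25a20 (0.40, edgeR adjusted p = 0.00244), the fatty acid transporter Cd36 (3.21, edgeR adjusted p = 0.00239, from 0.105 to 1.14 CPM) and the thiolase Acaa2 (0.20, edgeR adjusted p = 0.0331). Cd36 was at 0, 0.160 and 0.155 CPM in the controls, at most 1 count each, so the size of its change is uncertain. Acaa2 was lost under 9 of the 23 alternatives, among them without control library 1 (0.17, 0.127), control library 3 (0.17, 0.146), deficient library 2 (0.19, 0.0594) or deficient library 7 (0.18, 0.0721). Pdk4, a pyruvate dehydrogenase kinase and a well known PPAR delta target, had 7 counts in all controls and 11 in all deficient libraries and was not tested.

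Among the clock receptors, Nr1d2 and Rora were higher. Nr1d2 (ENSMUSG00000021775, chr14:18204054-18239127, minus strand) was at 8.27, 9.30 and 9.90 CPM in the controls and at 10.2, 12.4 and 17.0 CPM (lowest, median, highest) in the deficient libraries. All deficient libraries were above all controls, the nearest by less than the spread of the controls. The log2 fold change was 0.44 (SE 0.16, edgeR adjusted p = 0.0309). The call was lost without control library 1 (0.36, adjusted p = 0.142), control library 2 (0.42, 0.106), deficient library 4 (0.39, 0.0508) or deficient library 6 (0.43, 0.0555), in batch 2 alone (0.15, 0.638), with limma-voom (0.44, 0.0638) or after thinning every library to the total of the shallowest (0.35, 0.091). It held in batch 1 alone (0.59, 0.0254) and without deficient libraries 5 to 7 (0.66, 0.00377). Nr1d2 was at 12.0 to 17.0 CPM in deficient libraries 1 to 4 and at 10.2 to 12.4 CPM in libraries 5 to 7. Both deficient libraries of batch 2 are among the latter.

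Rora (ENSMUSG00000032238, chr9:68653786-69388246, plus strand), which group 2 innate lymphoid cells need to develop, was at 10.9, 6.73 and 6.65 CPM in the controls. It lay between 10.6 and 12.8 CPM in deficient libraries 1 to 4 and between 17.0 and 18.0 CPM in deficient libraries 5 to 7. Control library 1 overlapped with the lowest deficient library, and libraries 5 to 7 formed the top. The log2 fold change was 0.73 (SE 0.22, edgeR adjusted p = 0.00987). Without deficient libraries 5 to 7, where the cytotoxic and B cell marker sums were highest, it was 0.33 and did not pass (adjusted p = 0.168). It was 0.46 in batch 1 alone (0.131), 1.34 in batch 2 alone (4.43e-05), 0.65 without control library 2 (0.0568) and 0.47 without control library 3 (0.105). The diet difference was larger in batch 2 by 0.87 on the log2 scale, which did not pass (edgeR adjusted p = 0.947, unadjusted p = 0.0535). Batch 2 holds only control library 3 and deficient libraries 6 and 7, both of the top set, so this value does not separate batch from that set. Deficient library 5, of batch 1, was at 17.6 CPM. Exons of Rora share 82 bases with the antisense gene Gm15511.

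Of 21 listed genes of the clock in which these receptors work 18 were tested, 7 were higher, 3 lower and 8 did not pass, with a median log2 fold change of 0.07. The 10 of 18 that passed are a share close to the 58% of all genes. Windows of 250 bases before the start of Nr1d2 and of 2 higher clock repressors are shown from RefSeq (GRCm38.p6) in the direction of the gene. Capitals mark AGGTCA, the half-site that nuclear receptors read, in Nr1d2, and CACGTG, the E-box that the CLOCK and BMAL1 proteins bind, in Ciart and Cry1.
Nr1d2, chr14:18239107-18239356, minus strand: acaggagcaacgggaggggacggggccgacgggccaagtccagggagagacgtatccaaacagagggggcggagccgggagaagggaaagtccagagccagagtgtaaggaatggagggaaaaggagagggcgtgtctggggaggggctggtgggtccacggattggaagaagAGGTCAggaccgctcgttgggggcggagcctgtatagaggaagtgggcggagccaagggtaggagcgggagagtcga
Ciart, chr3:95882229-95882478, minus strand: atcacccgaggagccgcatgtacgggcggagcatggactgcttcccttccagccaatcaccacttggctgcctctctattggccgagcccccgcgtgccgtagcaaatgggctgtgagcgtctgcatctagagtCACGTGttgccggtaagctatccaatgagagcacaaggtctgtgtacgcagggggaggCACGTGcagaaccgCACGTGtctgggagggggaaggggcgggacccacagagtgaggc
Cry1, chr10:85185055-85185304, minus strand: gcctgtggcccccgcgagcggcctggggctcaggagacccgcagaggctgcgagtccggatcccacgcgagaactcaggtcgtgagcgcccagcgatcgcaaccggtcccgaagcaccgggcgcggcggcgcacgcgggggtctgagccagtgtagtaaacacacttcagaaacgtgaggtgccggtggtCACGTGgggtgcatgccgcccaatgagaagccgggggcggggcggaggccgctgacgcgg
On either strand, 14% of all 32851 windows hold AGGTCA and 6.02% hold CACGTG. The 16 clock genes with a window have 25 windows together, and in at least 1 of its windows 5 genes hold CACGTG and 3 hold AGGTCA. Among the receptors and Ahr themselves, 6 of 9 have a window, with 10 windows together. In at least 1 window, 6 of these genes hold GCGTG, 2 AGGTCA and 1 CACGTG. Genes with several windows have more places for a match, so these counts of genes cannot be set directly against the shares of windows. The counts describe letters in these windows and not binding.

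Arntl, which encodes BMAL1 and which REV-ERB proteins repress and ROR proteins activate, was at 28.4, 27.4 and 30.6 CPM in the controls and at 11.7, 12.8 and 17.7 CPM (lowest, median, highest) in the deficient libraries. The groups were apart, with a log2 fold change of -1.13 (SE 0.13, edgeR adjusted p = 2.21e-06). Its partner Clock rose from 20.3 ± 1.69 (SD, n = 3) to 33.5 ± 2.64 CPM (SD, n = 7), a log2 change of 0.63 (edgeR adjusted p = 3.59e-05). Among the Per, Cry and Ciart repressors of that pair, 3 passed and 3 did not. Cry1 rose from 16.1 to 27.9 CPM (0.70, edgeR adjusted p = 7.72e-05) and Per2 from 1.45 to 4.09 CPM (1.41, edgeR adjusted p = 0.000983, but 0.83 and 0.154 in batch 2 alone). Ciart, whose window holds 3 E-boxes, was at 1.72, 1.12 and 2.79 CPM in the controls and rose to 8.76, 10.2 and 11.2 CPM (lowest, median, highest) in the deficient libraries, a log2 change of 2.34 (edgeR adjusted p = 3.54e-07). Per1, Per3 and Cry2 did not pass, at -0.24, 0.39 and 0.02 on the log2 scale.

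Output genes and other genes of the clock list were mixed. Tef, an activator of D-box genes, rose by 1.23 and Bhlhe40, a repressor that T cells need for cytokine output, by 0.82 on the log2 scale. Dbp, a relative of Tef, was lower at -0.65 (edgeR adjusted p = 0.0213). Its call was lost under 5 of the 23 alternatives, among them without control library 1 (-0.59, 0.101), control library 3 (-0.37, 0.248) or deficient library 7 (-0.56, 0.0515). The kinase gene Csnk1d was the third lower gene, at -0.50 (edgeR adjusted p = 5.07e-06). Nfil3, which ROR alpha and REV-ERB also control, was at 172 and 195 CPM and did not pass (0.10, edgeR adjusted p = 0.477), and its sign changed among the alternatives. Each culture was sampled on day 5, and the hour of harvest is not given in the sources used here.

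**Figure D3:**
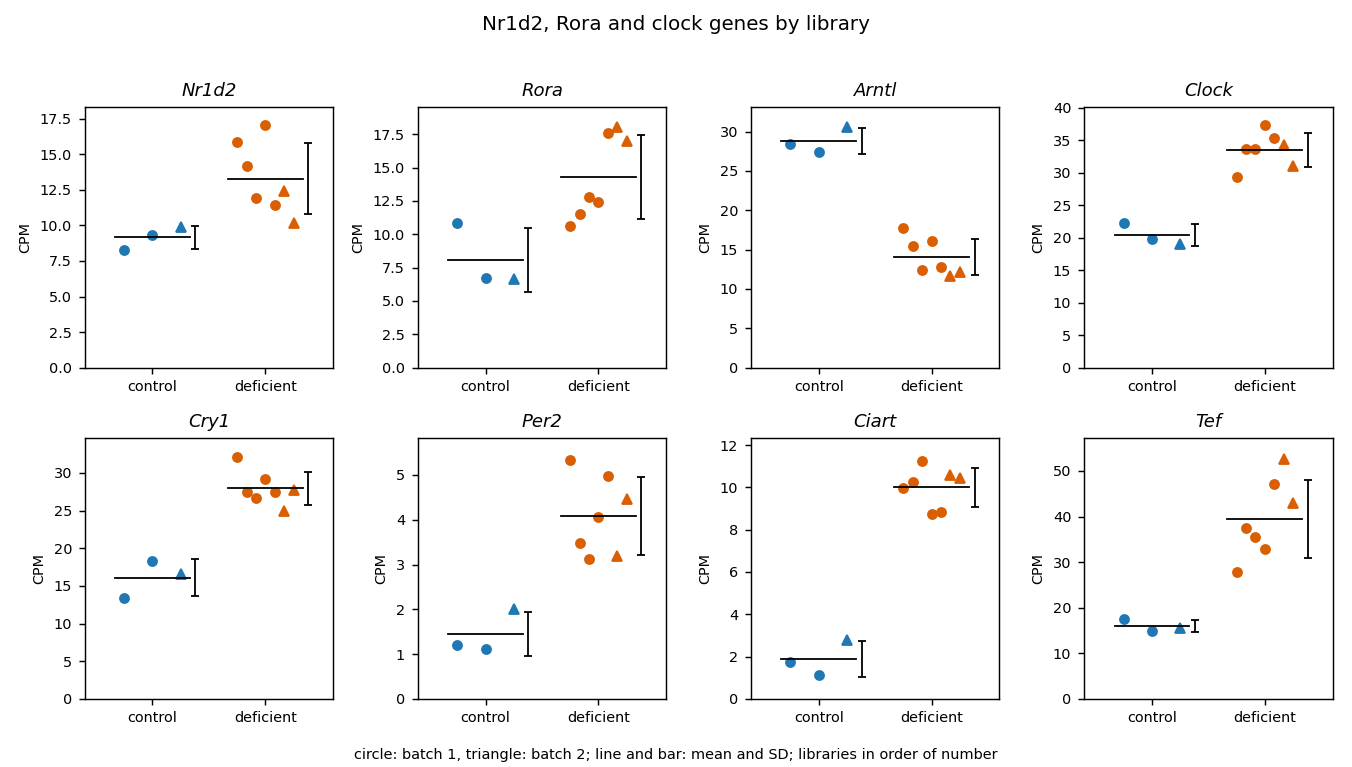
CPM of Nr1d2, Rora and 6 clock genes on the vertical axis by library and diet, with circles for batch 1, triangles for batch 2, a line at the mean and a bar for the SD. Arntl is lower in all 7 deficient libraries, Clock, Cry1, Per2, Ciart and Tef are higher in all 7, and Rora overlaps through control library 1.

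Of 41 other mouse nuclear receptor genes 18 were tested, 5 were higher, 3 lower and 10 did not pass, with a median log2 fold change of 0.27. The 8 of 18 that passed are a smaller share than the 58% of all genes. Besides Thrb, described above, Esrra, an orphan receptor of mitochondrial genes, and Nr4a2, an activation-induced orphan receptor, rose by 0.79 each on the log2 scale. Nr2f6 rose by 0.74 (edgeR adjusted p = 0.0125), which was lost without control library 1 (0.50, 0.0902) and in batch 2 alone (0.41, 0.393). Lower with Rxrb were Vdr, the vitamin D receptor gene, at -1.68 (edgeR adjusted p = 0.000156), and Pparg, at -0.91 (edgeR adjusted p = 0.00312). Pparg, which TH2 cells need, was at 47.5 to 60.4 CPM in deficient libraries 1 to 4, 26.4 to 30.4 CPM in libraries 5 to 7 and 67.4 to 79.4 CPM in the controls.

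For each tested gene the closest patterns were sought among 9420 protein-coding genes, as the root mean square difference over the 10 libraries of log2(CPM + 0.5) less the control mean. Nr3c1 was most like Clock (0.056) and the splicing factor gene Srsf11 (0.058), the tightest matches of the 8. Ahr was most like 4932438H23Rik (0.164) and Tbc1d8b (0.168), at log2 fold changes of -1.36 and -1.33. Thra was most like Rassf2 (0.091) and Rnf130 (0.13), Nr1d2 like Akip1 (0.098) and Magi3 (0.103), and Rarg like Dusp5 (0.113) and Furin (0.119). Rara was most like Nr4a1 (0.12) and Zfp944 (0.122), Rora like Trim12c (0.157) and Zfand2a (0.168), and Ppard like Ramp3 (0.18) and Cyp4f13 (0.189). Ahr, Ppard and Rora had the loosest matches. The measure is a description over libraries that share depth and diet.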

How the data were processed

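Raw read counts per Ensembl gene were deposited by the authors for 10 libraries of day 5 TH2 cultures, from a stranded total RNA kit with globin removal, per the labels' protocols. Per the submitters' processing notes, the tools were STAR 2.7.10a and HTSeq 0.13.5 and the build was GRCm38. How strand was set in counting, and which annotation was used, is not given in the sources used here. Of 49671 identifiers 49412 matched GENCODE M21, and the other 259 held 0.0226% of counts. Libraries of 5800698 to 13433276 counts set the precision, which is lowest in the controls.

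Counts were tested in R 4.3.3 with edgeR 4.0.16 (filterByExpr minimum count 10, TMM, robust quasi-likelihood, terms for diet and batch, all 10 libraries), with Benjamini-Hochberg adjustment over the 13699 genes kept and a threshold of 0.05. The common biological coefficient of variation was 12.7%. Levels are CPM on library totals, not TMM-scaled. Library numbers follow accession order and are names only. Intervals are 95%, and those of pooled counts cover counting error only. The steps were also run on simulated counts in which few genes were changed, whereas 58% of all genes passed here. That run therefore does not show how the steps perform on these data. Named genes are the 9 themselves, up to 4 per list of smallest adjusted p, textbook partners and targets and the 2 closest patterns per gene, plus genes named to complete a count, chosen after their values were seen. Some genes of the lists are counted but not reported here by name. The genes and lists were chosen with earlier results of these data known. Alternatives were 3 other scalings, no filter, a minimum count of 50, DESeq2 1.42.0, limma-voom 3.58.1, no batch term, each batch alone, no deficient libraries 5 to 7 and no deficient libraries 1 and 3 (both sets stood apart in an earlier analysis of these data), thinned counts and each library left out. In batch 2 alone the single control is assumed to vary like the deficient libraries. Figures used matplotlib 3.10.9.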

Additional observations from a re-analysis of the deposited data

Results flagged for a closer look

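Among 107 named genes, 7 had a deficient library whose gap to its nearest neighbour was wide for the range of the 7, which chance gives in about 1 in 20 groups. In 5 of the 7 it was deficient library 3, the shallowest of that group. There Ahrr was at 6.97 CPM (others 1.93 to 4.07), Nqo1 at 5.12 CPM (2.97 to 3.87), Nr2f6 at 7.11 CPM (4.54 to 5.61), Crabp2 at 12.9 CPM (65.4 to 103) and Mt1 at 7.54 CPM (9.04 to 10.1). Srsf11 was at 202 CPM in deficient library 1 (232 to 249), and Zbtb46 was at 16.0 CPM in deficient library 7 (10.4 to 12.4). None of the 8 tested genes of the part, Ahr among them, had such a library, and Nr1d1 was not checked.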

How the results depend on the processing

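Nr3c1 and Ahr kept direction and call under all 23 alternatives, at 0.58 to 0.74 and -1.47 to -1.17 on the log2 scale. The count of the 9 genes that were higher, 3, ranged from 1 (without control library 2) to 3 when 1 library was left out, and the count lower, 2, was 1 in batch 1 alone and stayed at 2 when 1 library was left out. For the 107 named genes, 2288 of 2449 values kept direction and side of the threshold, 108 lost the call, 43 gained one and 10 changed sign. The sign changes were all of genes that had not passed. Rxra was -0.39 in batch 2 alone and ranged from -0.11 (without control 1) to 0.33 when 1 library was left out. Nfil3 was -0.0101 in batch 1 alone, -0.11 without deficient libraries 5 to 7 and -0.01 (without control 3) to 0.16 when 1 library was left out. Flt3 was -0.31 in batch 2 alone. Rassf2 and Rnf130 were 0.0008 and 0.033 with total count scaling and 0.024 and 0.056 with no filter. The cause was not tested. Total count scaling moved the median of all genes by 0.085 and no filter by 0.109. Depth limits genes of few counts such as Nr1d1, Cyp1b1, Pdk4, Rarb and Foxp3. No paired analysis was possible because the labels give no replicate numbers.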
